A study of Rattus norvegicus with 144 samples.

Results

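The proteasome subunits of rat liver, adrenal gland and pancreas were followed in animals dosed with AMG A or AMG B. Members were all probe sets whose platform annotation gives a single gene symbol starting with Psma, Psmb, Psmc, Psmd or Psme, without Psmb8 and Psmb9. The larger values table held 53 member probe sets of 39 genes among 31042 probe sets, and the smaller one held 39 member probe sets of 36 genes among 15866. Of the larger table's members, 16 probe sets (14 genes) belonged to the catalytic core, 29 (20 genes) to the regulatory particle and 6 (3 genes) to the activators. The symbol rule also took in 2 genes that are not subunits: Psmc3ip, a factor of meiotic recombination, and Psme3ip1, a protein named for its binding to an activator. On the smaller one the core had 14 probe sets, the regulatory particle 18, the activators 5 and the partner genes 2.

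The study dosed 72 male Sprague Dawley rats, 8 to 10 weeks old, by mouth every day for 1, 4 or 14 days. AMG A was given at 0, 3 or 30 mg/kg and AMG B at 0, 3 or 60 mg/kg, and both are described in the design text as acting against the growth of blood vessels. There were 36 groups of 4 animals each, with 1 array an animal and tissue. Liver was sampled on all 3 days in both studies, adrenal gland on all 3 days of the AMG B study and on day 14 of the AMG A study, and pancreas on day 14 of both. Each group was set against the 0 mg/kg animals of the same study, day and tissue. Titles of the day 14 adrenal and pancreas controls name no compound. Their study was taken from the animal number, which is also in the title of a liver array that names it. The labels name no genetic change.

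The proteasome is the protease complex that degrades most ubiquitin-tagged proteins of the cytosol and nucleus. Its core is a barrel of Psma rings that gate the entrance and Psmb rings that hold the proteolytic sites. Its regulatory particle contains the Psmc ATPases, which unfold substrates, and the Psmd subunits, which bind and remove ubiquitin and hold the complex together. In cells exposed to interferon, Psmb8, Psmb9 and Psmb10 replace the constitutive catalytic subunits, and the Psme1 and Psme2 activator can take the place of the regulatory particle. The transcription factor NRF1, encoded by Nfe2l1, is known from human and mouse cells to raise most subunit genes together when proteasome activity falls.

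Psmb10 and Psme1 passed the test at the same probe set in more than 1 tissue, and their promoters and that of Psme2, the partner of Psme1, are shown for that reason. The windows cover the 250 bases before the RefSeq start used by the promoter set on the rat build GRCr8, read 5′ to 3′ on the gene's strand. That start need not be the outer end of the gene. The Psmb10 window begins next to the listed gene end (50743292). The Psme2 window lies inside the listed gene span (33048452 to 33053055), and the Psme1 window runs past the listed gene start (33038962). Capitals mark the letters GAAANNGAAA, the core of the interferon-stimulated response element, searched on both strands.
Psmb10, chr19:50743293-50743542, minus strand: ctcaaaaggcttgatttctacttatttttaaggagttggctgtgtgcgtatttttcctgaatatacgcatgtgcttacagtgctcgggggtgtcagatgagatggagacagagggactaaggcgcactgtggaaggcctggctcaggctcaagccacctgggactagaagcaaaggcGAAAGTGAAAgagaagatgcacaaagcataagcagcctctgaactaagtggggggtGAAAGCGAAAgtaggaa
Psme2, chr15:33052752-33053001, minus strand: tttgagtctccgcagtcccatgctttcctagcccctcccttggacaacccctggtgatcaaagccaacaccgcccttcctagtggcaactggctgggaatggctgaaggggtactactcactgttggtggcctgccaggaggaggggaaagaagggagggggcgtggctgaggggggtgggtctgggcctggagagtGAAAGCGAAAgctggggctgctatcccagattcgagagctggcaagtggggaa
Psme1, chr15:33038721-33038970, plus strand: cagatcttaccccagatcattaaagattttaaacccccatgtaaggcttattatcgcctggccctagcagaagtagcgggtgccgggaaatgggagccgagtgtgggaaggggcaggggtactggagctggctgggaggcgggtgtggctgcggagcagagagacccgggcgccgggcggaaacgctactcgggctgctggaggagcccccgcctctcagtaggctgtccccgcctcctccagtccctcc
Counted from the start that each window used, the motif began at bases -73 and -17 in Psmb10 and at base -53 in Psme2. The Psme1 window did not hold these letters. The motif was present in 3 of 13 core promoters (Psmb10, Psma4 and Psmb3), 1 of 17 regulatory promoters (Psmd7) and 1 of 3 activator promoters, against 3.29% of 27457 rat promoters of the same length. The letters TGACNNNGC, the core of the antioxidant response element that NRF1 and NRF2 share, were present in 3 of 13 core promoters (Psma3, Psmb2 and Psmb5), 2 of 17 regulatory promoters (Psmd1 and Psmd9) and 1 of 3 activator promoters (Psme4), against 10.2% of all. The letters TTCNNNGAA of the gamma-activated site were present in 0 core and 3 of 17 regulatory promoters (Psmc6, Psmd3 and Psmd7), against 7.52% of all.

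Every value below is a standardised score. As deposited, each probe set averaged about 0 with an SD of about 1 over all arrays of the series, so a score says where an array stands among the arrays for that probe set, and a difference of scores is not a fold change. Levels of different genes were therefore not set against each other. The spread over all probe sets of an array ran from 0.62 to 1.15 outside the pancreas and from 1.15 to 1.99 in the pancreas. The most spread array was the pancreas of AMG B 3 mg/kg animal 30. Acinar markers, which define the bulk of the pancreas, were high in the pancreas arrays, with a list mean of 1.55 to 1.74 at AMG B 60 mg/kg against 2.30 to 3.12 in AMG B controls. Probe sets were called at an adjusted p under 0.05 (limma across all probe sets of a table, Benjamini-Hochberg), and all adjusted p-values below are from that test.

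In control animals more members differed between tissues than between any dose group and its control. On day 14 of the AMG B study 30 of 53 members differed between liver and adrenal gland, 43 between pancreas and adrenal gland and 43 between pancreas and liver. Over all probe sets 43.6%, 57.6% and 54.2% differed in these comparisons, so the members' shares of 56.6%, 81.1% and 81.1% stood above the background in each. Lower scores in the pancreas made up most of it. Against the adrenal gland, 11 core, 19 regulatory and 3 activator probe sets were lower in the pancreas and 3, 4 and 1 were higher. Against the liver, 8 core, 22 regulatory and 5 activator probe sets were lower in the pancreas and 4, 3 and 0 were higher. Over all probe sets 29.4% were lower in pancreas than in adrenal gland, 26.6% lower in pancreas than in liver and 23.8% lower in liver than in adrenal gland. Lower pancreas scores were not particular to the members. Between pancreas and liver, 14 of 21 probe sets of the unfoldase p97 and its cofactors were lower and 3 higher. Of 14 probe sets of NRF2 targets 8 were lower and 1 higher. Of 10 probe sets of NRF1 activation 2 were lower and 1 higher.

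Among the core subunits the order adrenal gland, liver, pancreas held for 8 of 16 probe sets. Psma2, a subunit of the gating ring, scored -1.23, -1.33, -1.38 and -0.99 in control pancreas and -0.15, -0.15, -0.15 and -0.18 in control liver, against 1.64, 1.44, 1.42 and 1.50 in control adrenal gland. The 3 tissues did not overlap. The Psma2 difference was -2.73 ± 0.18 (SE) between pancreas and adrenal gland (adjusted p = 1.8e-13) and -1.66 ± 0.18 between liver and adrenal gland (adjusted p = 5.1e-09). Psma5, another gating subunit, was 2.41 lower in pancreas than in adrenal gland (-1.72 against 0.70) and 2.56 lower than in liver (0.84). Between liver and adrenal gland 1 core probe set was higher (Psma3, 0.86 ± 0.28, adjusted p = 0.012) and 7 were lower, with a median core difference of -0.60.

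Psmb10 went the other way. This inducible subunit, which replaces Psmb7 at the trypsin-like site, scored 2.71, 1.92, 3.18 and 1.15 in control pancreas and -0.43, -0.28, -0.18 and -0.47 in control liver, against 0.43, 0.13, -0.06 and -0.14 in control adrenal gland. All pancreas values lay above all values of the other tissues. The difference was 2.15 ± 0.29 against the adrenal gland (adjusted p = 3.2e-07) and 2.58 ± 0.29 against the liver (adjusted p = 1.2e-08), while liver and adrenal gland differed by -0.43 ± 0.29 (adjusted p = 0.25). Psma7 was also higher in pancreas, by 0.62 over the adrenal gland (adjusted p = 0.0078) and by 1.47 over the liver (adjusted p = 1.8e-07).

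Probe sets of 1 gene did not always give 1 answer across tissues. For Psmb5, the chymotrypsin-like catalytic subunit, 1371348_at was higher in pancreas than in adrenal gland by 1.63 (1.81 ± 0.36 against 0.18 ± 0.23). In contrast, 1385531_at was lower by 3.51 (-2.81 ± 1.58 against 0.70 ± 0.41) and 1385532_x_at was lower by 3.02. In the AMG A controls the difference at 1385531_at was -1.16 (-0.34 ± 0.19 against 0.82 ± 0.40). For Psmd11, a scaffold subunit of the lid, 1380252_at was higher in pancreas than in liver by 2.29, whereas 1376069_at and 1374712_at were lower by 2.37 and 2.30. None of these probe sets is taken here as the level of its gene. Of the 39 genes in the larger table, 9 had more than 1 member probe set.

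In the regulatory particle the order liver, adrenal gland, pancreas held for 13 of 29 probe sets and the order adrenal gland, liver, pancreas for 8. The first order held for 3 of 16 core probe sets. Probe sets of 1 gene count separately here, and the difference between regulatory particle and core was not tested. Psmc3, one of the ATPases, scored 1.97, 1.91, 1.74 and 1.34 in control liver against -0.85, -1.04, -0.88 and -0.73 in control adrenal gland, a difference of 2.62 ± 0.29 (adjusted p = 1e-08). Psmd1, a large scaffold of the base, scored -1.77, -1.86, -1.94 and -1.79 in control pancreas against 1.14, 2.02, 1.32 and 1.06 in control liver, a difference of -3.22 ± 0.24 (adjusted p = 1.6e-12). Neither pair of tissues overlapped. The 3 probe sets of the ATPase Psmc6 were higher in liver than in adrenal gland by 1.67, 1.85 and 1.97, and Psmd9, a chaperone of base assembly, was lower in pancreas than in liver by 2.83 and 1.74 at its 2 probe sets. The assembly chaperone Psmd10 was lower in liver than in adrenal gland, with -0.39 ± 0.14 in liver and 1.40 ± 0.32 in adrenal gland (difference -1.79, adjusted p = 8.2e-07).

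The activators did not share 1 order of tissues. Psme4, a large activator that caps the core in place of the regulatory particle, was higher in liver than in adrenal gland at 1368817_at (1.55 ± 0.31 against -1.16 ± 0.33, difference 2.71, adjusted p = 1.9e-07) and 1387345_at (difference 2.52). The remaining one, 1368818_at, differed by 0.60 (adjusted p = 0.2). Psme2 was lower in liver (0.00 ± 0.15) than in adrenal gland (1.41 ± 0.24), by 1.41 (adjusted p = 2e-05). Psme1 at 1367663_at was lower in pancreas (-2.24 ± 0.41) than in adrenal gland (1.13 ± 0.30), a difference of -3.37 (adjusted p = 5e-06). At its other probe set Psme1 scored -0.33 ± 0.62 in pancreas, 0.05 ± 0.80 in liver and -0.35 ± 1.43 in adrenal gland, and no pair of tissues was called (adjusted p = 0.73 to 0.99).

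The AMG A controls gave a second set of animals for pancreas and adrenal gland. There 42 of 53 members differed, or 79.2%, against 54.1% of all probe sets. Of the core 12 were lower in pancreas and 3 higher, and of the regulatory particle 18 were lower and 4 higher, while 28.5% of all probe sets were lower. Psmb10 was again higher in pancreas, at 1.46 ± 0.19 against -0.40 ± 0.02 in adrenal gland (difference 1.86, adjusted p = 7.8e-06). Psme1 at 1367663_at was not called in these animals: it stood at -0.56 ± 2.30 in pancreas against 0.62 ± 0.20 in adrenal gland, with overlap (difference -1.18 ± 0.77 (SE), adjusted p = 0.21). The 3 probe sets of Psmd14, the deubiquitinase of the regulatory particle, were lower by 2.64, 2.62 and 2.57. The partner gene Psme3ip1 was higher in pancreas than in adrenal gland (2.04 ± 0.38 against 0.70 ± 0.40) and than in liver (-0.47 ± 0.15) in the AMG B controls.

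**Figure D1:**
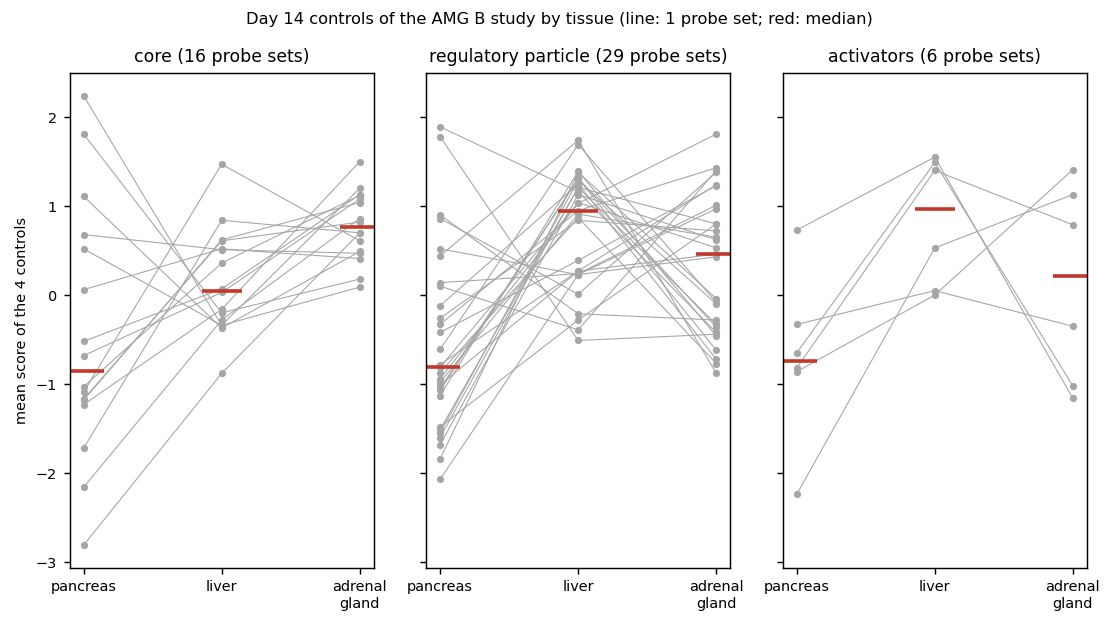
Mean score of the 4 day 14 controls of the AMG B study (vertical axis, standardised score) in pancreas, liver and adrenal gland, 1 line for each probe set, with the median of the panel's probe sets as a red bar; core, regulatory particle and activators have a panel each. Pancreas lies lowest in the median of all 3 panels, and the highest median is in the adrenal gland for the core and in the liver for the regulatory particle and the activators.

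Dosing moved few single members past the threshold. Over the 24 comparisons of a dose group with its control, members were called in 5, all of them AMG B at 60 mg/kg: 2 in liver on day 4, 3 in liver on day 14, 1 in adrenal gland on day 4, 7 in adrenal gland on day 14 and 7 in pancreas on day 14. The members' share called, against that of all probe sets, was 3.77% against 0.68% in liver on day 4. It was 5.66% against 5.66% in liver on day 14. In adrenal gland it was 1.89% against 0.889% on day 4 and 13.2% against 5.96% on day 14. In pancreas it was 13.2% against 9.88%, and that count includes the partner gene Psme3ip1. With 1 animal left out, the counts ran from 1 to 2 in liver on day 4 and 0 to 1 in adrenal gland on day 4. They ran from 3 to 9 in adrenal gland on day 14 and 4 to 7 in pancreas. No excess of members is read from these small counts. No member was called against controls in any comparison of AMG A, of AMG B at 3 mg/kg, or of AMG B at 60 mg/kg on day 1.

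**Figure D2:**
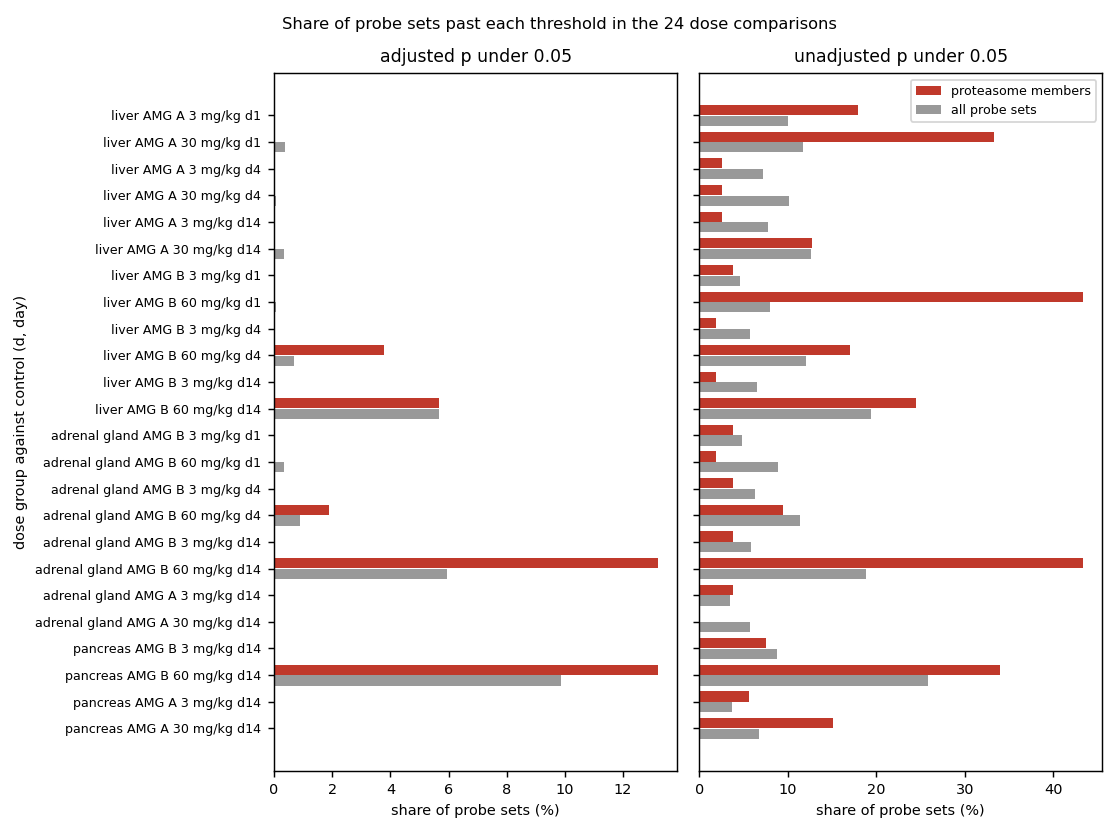
Share of probe sets (horizontal axis, %) with an adjusted p under 0.05 (left) and an unadjusted p under 0.05 (right) in the 24 dose comparisons, with proteasome members in red and all probe sets of the table in gray. Members exceed all probe sets most at the unadjusted threshold in liver at AMG B 60 mg/kg on day 1 (43.4% against 8%) and in adrenal gland at AMG B 60 mg/kg on day 14 (43.4% against 18.8%).

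In the liver of AMG A animals, where 0 of 39 members were called in each of the 6 comparisons with controls, the members nonetheless leaned one way on day 1. At 30 mg/kg on day 1 all 14 core probe sets had a positive difference, with a median of 0.32, and the regulatory particle had 15 of 18 positive with a median of 0.24, beside a median of 0.00 over all probe sets. An unadjusted p under 0.05 was reached by 13 of 39 members, or 33.3%, against 11.7% of all probe sets, and 0.366% of all probe sets were called. Members of 1 complex move together from animal to animal, as given further on, so these counts are not independent of each other.

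Psmb1, a non-catalytic ring subunit, had the lowest adjusted p of that comparison. It scored -0.36, -1.08, -0.37 and -0.93 at 30 mg/kg against -1.46, -1.01, -1.91 and -1.66 in controls, and 1 control lay within the dosed range (difference 0.83 ± 0.23, adjusted p = 0.12). Psma7 and Psma5 followed, with differences of 0.53 and 0.58 (adjusted p = 0.12 each). At 3 mg/kg on day 1 all 14 core probe sets were again positive, with a median of 0.24, but both doses share their controls, and 0.0378% of all probe sets were called. The lowest adjusted p there was that of Psma7 (0.40, adjusted p = 0.34).

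On days 4 and 14 no member was called against controls in the AMG A liver either. The share of all probe sets called was 0.0126% at 3 mg/kg and 0.0693% at 30 mg/kg on day 4, and 0.0063% at 3 mg/kg and 0.353% at 30 mg/kg on day 14. The members with the lowest adjusted p were Psme4 (-0.27, adjusted p = 0.67) and Psme2 (-0.22, adjusted p = 0.33) on day 4, and Psmd10 (0.15, adjusted p = 0.6) at 3 mg/kg on day 14. At 30 mg/kg on day 14, 13 of 14 core and 17 of 18 regulatory probe sets had a positive difference, with medians of 0.11 and 0.22 beside 0.00 over all probe sets. There 5 of 39 members had an unadjusted p under 0.05, or 12.8% against 12.6% of all probe sets. Psmc5, one of the ATPases, scored -0.74, -0.65, -0.62 and -0.41 at 30 mg/kg on day 14 against -1.07, -1.08, -0.87 and -1.01 in controls. These groups did not overlap, and the difference of 0.40 missed the threshold (adjusted p = 0.051). It passed without 30 mg/kg animal 3033 (0.45, adjusted p = 0.046) and under 4 other settings, with 0.41 after quantile normalisation, median centring or array weights and 0.40 with 1 probe set for each gene. Against 3 mg/kg, where it scored -1.24, -1.19, -0.95 and -1.15, Psmc5 was 0.53 ± 0.09 higher at 30 mg/kg (adjusted p = 0.019), the 1 member called beside 0.063% of all probe sets. That call was lost without 30 mg/kg animals 3034 or 3036 or without 3 mg/kg animals 3021, 3022 or 3024 (adjusted p = 0.059 to 0.093), and in a fit of those 2 groups alone.

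In the liver of AMG B animals most subunit differences were positive at 60 mg/kg on day 1. At that dose 13 of 16 core and 25 of 29 regulatory probe sets had a positive difference, with medians of 0.28 and 0.46 beside 0.00 over all probe sets. The array median of the regulatory particle was 0.56 ± 0.16, 0.62 ± 0.13 and 1.08 ± 0.31 at 0, 3 and 60 mg/kg (SD, n = 4 each). Liver controls of days 4 and 14 averaged 0.33 ± 0.10 and 0.91 ± 0.23, so this median also moved between days without dosing. No single member was called, beside 0.0548% of all probe sets, although 23 of 53 members had an unadjusted p under 0.05. Psma7 had the lowest adjusted p, with 0.33, 0.73, -0.07 and 0.22 at 60 mg/kg against 0.18, -0.66, -0.39 and -0.53 in controls (0.65 ± 0.19, adjusted p = 0.32). The groups overlapped through 1 control and 1 dosed animal. The ATPases Psmc2 (0.41 ± 0.28 against -0.03 ± 0.17) and Psmc4 at 1398869_at (1.42 ± 0.40 against 0.72 ± 0.28) had groups that did not overlap, with adjusted p-values of 0.45 and 0.47. At 3 mg/kg 0.00966% of all probe sets and no member were called, and the lowest adjusted p was that of Psme4 at 1368818_at (1.14, adjusted p = 0.91).

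On day 4 the 2 liver members called at 60 mg/kg were both interferon-inducible. Psmb10 scored -0.09, 0.01, -0.03 and -0.06 at 60 mg/kg against -0.45, -0.59, -0.55 and -0.57 in controls. Psme1 at 1367663_at scored 0.80, 1.51, 0.96 and 1.30 at 60 mg/kg against 0.26, 0.37, 0.35 and 0.07 in controls. Neither gene's groups overlapped. Psmb10 rose by 0.50 ± 0.10 (adjusted p = 0.0099) and Psme1 by 0.88 (adjusted p = 0.011), beside 0.68% of all probe sets called. Psme2, the partner of Psme1 in the same ring, scored -0.18, 0.22, 0.23 and -0.05 against -0.36, -0.24, -0.32 and -0.47 in controls, without overlap, and missed the threshold (0.40, adjusted p = 0.08). Leaving out 60 mg/kg animal 22 ended the call of Psme1 (0.75, adjusted p = 0.052), and a fit of only the compared groups, 8 arrays, called no member. The other immunoproteasome subunits lay the same way: Psmb9 rose by 0.89 (0.42 ± 0.20 against -0.47 ± 0.11, adjusted p = 0.0024) and Psmb8 differed by 1.03 (adjusted p = 0.058). The day 4 liver controls stood low for these genes. Psmb9 averaged -0.47 in them against -0.21 and -0.28 in controls of days 1 and 14, and Psmb8 0.10 against 0.46 and 0.52. Day 4 controls also averaged below day 14 controls for Psmb10 and Psme1. Control groups of different days were not tested against each other.

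Other genes and cell markers of that comparison were as follows. The interferon-inducible antigen processing list includes Psmb8 and Psmb9. Of its 12 probe sets 1 was higher, the Psmb9 call already given, and none lower, with a median of 0.33 beside 0.01 over all. Of the cell type markers, 1 of 7 macrophage probe sets (Mrc1, -1.56), 1 of 11 endothelial probe sets (Kdr, -1.51) and 2 of 5 erythroid probe sets (Hbb, -1.86, and Alas2, -2.46) fell, and their part in the result was not tested. In whole-tissue samples fewer cells of a type and less RNA per cell cannot be told apart. At 3 mg/kg on day 4 no member was called, beside 0.0226% of all probe sets, and 15 of 16 core and 22 of 29 regulatory probe sets had a negative difference (medians -0.17 and -0.21). The lowest adjusted p was that of Psmd10 (-0.35, adjusted p = 0.81).

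On day 14 the liver calls at 60 mg/kg were other members. Psmb2, a non-catalytic ring subunit, scored 0.12, 0.11, -0.62 and 0.12 at 60 mg/kg against 0.82, 0.52, 0.43 and 0.65 in controls. Psmb3, its neighbour in the ring, scored -0.09, -0.19, -1.07 and 0.47 at 60 mg/kg against 0.77, 0.85, 0.56 and 0.30 in controls. The Psmb2 groups did not overlap and the Psmb3 groups did, and animal 35 was the lowest dosed animal for both. Psmb2 fell by 0.67 (adjusted p = 0.022) and Psmb3 fell by 0.84 (adjusted p = 0.042). Of the 16 core probe sets 12 had a negative difference, with a median of -0.25. At 1381794_at Psmc4 scored 1.06, 1.63, 1.25 and 0.99 at 60 mg/kg against 0.88, 0.57, -1.29 and -1.0 in controls, and rose by 1.44 (adjusted p = 0.042). The other probe set of Psmc4, 1398869_at, differed by -0.78 (0.79, 0.04, -0.66 and 0.86 against 1.08, 1.18, 1.14 and 0.76, adjusted p = 0.071), so the 2 probe sets of this gene pointed opposite ways.

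None of these calls held throughout. The Psmb2 call was lost without control animals 25 (-0.60, adjusted p = 0.077) or 28 (-0.66, adjusted p = 0.051) or dosed animal 35 (-0.49, adjusted p = 0.1). The Psmb3 call was lost without control animals 25, 26 or 27 or dosed animals 33, 34 or 35 (adjusted p = 0.056 to 0.19). The Psmc4 call was lost without control animals 27 or 28 or dosed animals 33, 34, 35 or 36 (adjusted p = 0.054 to 0.16). A fit of only the compared groups called none of the 3, array weights ended the calls of Psmb2 (-0.54) and Psmb3 (-0.65), and quantile normalisation ended those of Psmb3 (-0.94) and Psmc4 (1.55). At 3 mg/kg on day 14 no member was called, beside 0% of all probe sets, and the lowest adjusted p was that of Psmc3 (-0.52, adjusted p = 0.76). There 13 of 16 core and 22 of 29 regulatory probe sets had a negative difference, with medians of -0.11 and -0.18.

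Genes that work with the proteasome gave single calls in the liver at 60 mg/kg on day 14, beside 5.66% of all probe sets. Rad23b, a shuttle that brings ubiquitinated proteins to the proteasome, rose by 1.18 (adjusted p = 0.0064), the 1 call among 18 probe sets of receptors and deubiquitinases. Ubxn4, a cofactor of the unfoldase p97, rose by 0.73 (adjusted p = 0.021), 1 of 21 probe sets of p97 and its cofactors. Ecpas, a scaffold of proteasome disassembly in yeast, fell by 0.86 (adjusted p = 0.04), 1 of 12 probe sets of assembly factors. These shares were near that of all probe sets. Among the NRF2 targets 2 of 14 probe sets rose, Nqo1 by 2.73 (adjusted p = 2.2e-04) and Txnrd1 by 0.97 (adjusted p = 0.032). Macrophage markers fell at 5 of 7 probe sets, endothelial markers at 4 of 11, erythroid markers at 2 of 5 and adipocyte markers at 1 of 6. Of 11 hepatocyte probe sets 1 rose (2.50) and 1 fell (-1.80), both of the same gene, Fgb. The part of these markers in the subunit differences was not tested.

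In the adrenal gland of AMG B animals day 1 gave no member call, beside 0.00644% of all probe sets at 3 mg/kg and 0.335% at 60 mg/kg. At 60 mg/kg 1 member of 53 had an unadjusted p under 0.05, or 1.89% against 8.92% of all probe sets. That was Psmd14 at 1386073_at, with 1.15, 2.22, 0.07 and 0.59 at 60 mg/kg against -0.22, 0.06, -0.25 and 0.03 in controls (1.10, adjusted p = 0.25). Its groups did not overlap. At 3 mg/kg the lowest adjusted p was that of Psme2 (-0.62, adjusted p = 0.57).

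On day 4 Psmd8, a lid subunit, was the 1 member called. It scored 1.42, 1.10, 0.54 and 1.31 at 0 mg/kg, 0.90, -0.02, 0.27 and 0.01 at 3 mg/kg and -0.53, 0.16, -0.30 and -0.28 at 60 mg/kg. The 60 mg/kg group lay below all controls. Psmd8 fell by 1.33 ± 0.30 at 60 mg/kg (adjusted p = 0.019), beside 0.889% of all probe sets called, and differed by -0.80 at 3 mg/kg (adjusted p = 0.58), beside 0.0354%. The call was lost without control animals 13 (adjusted p = 0.089) or 16 (adjusted p = 0.077) or dosed animals 21 (adjusted p = 0.065) or 23 (adjusted p = 0.056), and in a fit of only the compared groups. At 60 mg/kg endothelial markers fell at 7 of 11 probe sets, the erythroid marker Hbb fell by 1.35 (1 of 5 probe sets) and the medullary marker Pnmt rose by 2.16, and their part in the Psmd8 difference was not tested.

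Day 14 at 60 mg/kg gave the widest movement of the regulatory particle in the adrenal gland. Its array median was 0.42 ± 0.28, 0.28 ± 0.23 and 0.77 ± 0.35 at 0, 3 and 60 mg/kg. The other adrenal control groups averaged 0.27 ± 0.18 on day 1 and -0.07 ± 0.29 on day 4. The day 14 controls of the AMG A study averaged 0.59 ± 0.21. Of the 29 regulatory probe sets 27 had a positive difference from control, with a median of 0.39 beside 0.00 over all probe sets. The core had a median of 0.32 with 12 of 16 positive. An unadjusted p under 0.05 was reached by 23 members, or 43.4% against 18.8%, and 7 were called.

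Of the regulatory subunits called, 3 rose and 1 fell. Psmc1, one of the ATPases, scored 1.90, 1.03, 2.79 and 3.06 at 60 mg/kg against 0.99, 0.54, 0.69 and 0.66 in controls. Every dosed animal lay above every control. Psmc1 rose by 1.48 (adjusted p = 0.0023), and its 3 mg/kg group stood at 0.73 ± 0.31. Psmd12, a lid subunit, scored 0.47, -0.04, 0.76 and 1.05 against -0.46, -0.41, -0.24 and -0.20 in controls, again without overlap, and rose by 0.89 (adjusted p = 0.024). Psmc3 scored -0.21, -1.04, 0.14 and 0.28 against -0.85, -1.04, -0.88 and -0.73 in controls, with 1 dosed animal no higher than the lowest control, and rose by 0.67 (adjusted p = 0.049).

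Psmd8 fell again on day 14. It scored 0.12, 0.33, 1.53 and 1.16 at 60 mg/kg against 2.06, 1.40, 1.39 and 2.40 in controls, with overlap through 1 dosed animal (-1.03, adjusted p = 0.034). The Psmd12 call was lost without control animals 25 or 26 or dosed animals 35 or 36 (adjusted p = 0.059 to 0.11). The Psmc3 call was lost without any control animal (25, 26, 27 or 28) and without dosed animals 33, 35 or 36 (adjusted p = 0.065 to 0.2), and under quantile normalisation (0.69) and array weights (0.59). The Psmd8 call was lost without control animals 25 or 28 or dosed animals 33 or 34 (adjusted p = 0.1 to 0.15). The Psmc1 call held with each animal left out in turn.

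Psmb10 and 1 probe set each of the activators Psme1 and Psme4 fell in the same adrenal glands. Of the 6 activator probe sets 3 had a negative difference, these 2 and Psme2, and 3 had a positive one. The positive ones were the other probe set of Psme1 and the remaining ones of Psme4. Psmb10 scored -0.43, -0.23, -0.44 and -0.49 at 60 mg/kg against 0.43, 0.13, -0.06 and -0.14 in controls, without overlap (-0.49, adjusted p = 0.0038). Psme1 at 1367663_at scored 0.64, 0.49, -0.34 and -0.18 against 1.49, 1.23, 1.01 and 0.78 in controls, without overlap (-0.97, adjusted p = 0.016). Psme4 at 1368818_at scored 0.16, 0.27, 0.10 and -0.38 against 0.29, 1.15, 0.78 and 0.95 in controls, without overlap (-0.76, adjusted p = 0.022). The control group of this comparison stood above the other adrenal control groups for all 3 genes. For Psmb10 the day 14 AMG B controls averaged 0.09 ± 0.26, against -0.40 ± 0.08 on day 1, -0.47 ± 0.06 on day 4 and -0.40 ± 0.02 in the day 14 AMG A controls. For Psme1 they averaged 1.13 ± 0.30 against 0.44, 0.51 and 0.62 in the same order, and for Psme4 at 1368818_at 0.79 ± 0.37 against -0.43, -0.16 and 0.12.

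The 60 mg/kg level of Psmb10, -0.40 ± 0.12, was thus within the range of those other control groups, which were not tested against it. The 3 mg/kg group of day 14 stood with its own controls, at 0.18 ± 0.31 for Psmb10 and 1.18 ± 0.37 for Psme1. The Psmb10 call held with each animal left out in turn. The Psme1 call was lost without control animal 25 or dosed animals 35 or 36 (adjusted p = 0.063 to 0.08), and the Psme4 call without control animals 26 or 28 or dosed animal 36 (adjusted p = 0.069 to 0.1). Another Psme4 probe set, 1387345_at, differed by 0.57 (adjusted p = 0.059), in the opposite direction. Psme2 differed by -0.46 (adjusted p = 0.14). A fit of only the compared groups called none of the 7 adrenal members.

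Single genes around the subunits were called in the adrenal gland at 60 mg/kg on day 14, beside 5.96% of all probe sets. Of p97 and its cofactors 4 of 21 probe sets rose and none fell, the largest 3 being Ubxn1 (0.95), Nsfl1c (0.86) and Ufd1 (0.82). Of the receptors and deubiquitinases 2 of 18 rose, Zfand2a by 1.80 and Rad23b by 0.84. Of the NRF2 targets 2 of 14 rose, Hmox1, the stress-inducible haem oxygenase, by 4.63 (adjusted p = 9.1e-05) and Gclm by 0.33. The 3 probe sets of Nfe2l1 differed by 0.35, 0.44 and 0.89 and none was called (adjusted p = 0.27, 0.16 and 0.092). Of the interferon-inducible list 1 of 12 fell, Psmb9, by 1.10 (adjusted p = 0.012). Macrophage markers fell at 4 of 7 probe sets, endothelial markers at 4 of 11, lymphocyte markers at 1 of 9 and erythroid markers at 1 of 5 (Slc4a1, by 0.96), and their part in the subunit differences was not tested.

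The adrenal gland of AMG A animals and of AMG B 3 mg/kg animals on day 14 gave no member call. Over all probe sets 0.00322% were called at AMG B 3 mg/kg, 0% at AMG A 3 mg/kg and 0% at AMG A 30 mg/kg. At AMG A 30 mg/kg no member had an unadjusted p under 0.05, against 5.80% of all probe sets. Psma1 (0.48, adjusted p = 0.55) at AMG B 3 mg/kg, Psmd8 (-0.73, adjusted p = 1) at AMG A 3 mg/kg and Psmb2 (0.35, adjusted p = 0.9) at AMG A 30 mg/kg had the lowest adjusted p.

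**Figure D3:**
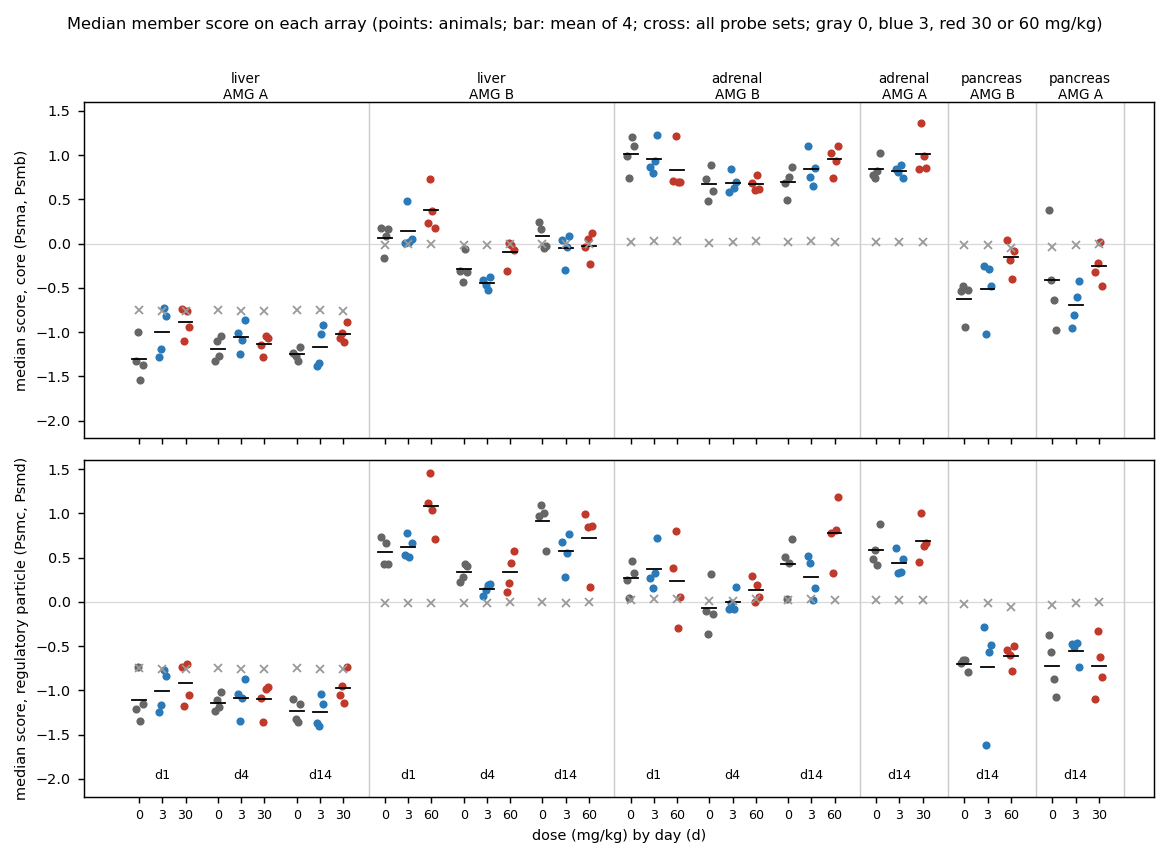
Median score of the core probe sets (upper panel) and of the regulatory particle probe sets (lower panel) on each array, by dose and day (d) within each tissue and study; points are animals, bars the mean of 4, crosses the median of all probe sets, and colours mark 0 mg/kg (gray), 3 mg/kg (blue) and the high dose (red). The regulatory median at 60 mg/kg averages 1.08 in liver on day 1 against 0.56 in controls, and 0.77 in adrenal gland on day 14 against 0.42, with overlap between animals in both.

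In the pancreas at AMG B 60 mg/kg, 4 members rose and 3 fell, beside 9.88% of all probe sets called. The core had a median difference of 0.52 and the regulatory particle 0.10, beside -0.02 over all probe sets. Psmb5 at 1385531_at moved furthest. It scored -0.53, -3.46, -3.11 and -4.15 at 0 mg/kg, -0.04, 0.52, 0.51 and -0.18 at 3 mg/kg and -0.19, -0.16, 0.25 and 0.36 at 60 mg/kg. The controls were spread over several units and 3 of them stood far below every other pancreas, while the AMG A controls scored between -0.10 and -0.56. The difference was 2.88 ± 0.54 at 60 mg/kg (adjusted p = 0.0027) and 3.02 at 3 mg/kg (adjusted p = 0.068), where no member was called beside 0.0226% of all probe sets. Without control animal 25 the 3 mg/kg difference passed (3.78, adjusted p = 0.00016). The other probe sets of Psmb5 were not called at 60 mg/kg: 1385532_x_at differed by 1.43 (adjusted p = 0.11) and 1371348_at by -0.66 (adjusted p = 0.31).

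The other members that rose were probe sets of a ring subunit, a deubiquitinase and an activator. Psma2 scored -0.03, -0.67, -0.45 and -0.59 at 60 mg/kg against -1.23, -1.33, -1.38 and -0.99 in controls, without overlap (0.80, adjusted p = 0.02). Psmd14 at 1383429_at scored -0.74, -1.29, -1.06 and -1.42 against -2.10, -2.11, -1.94 and -2.13 in controls, without overlap (0.95, adjusted p = 0.021), while its other probe sets differed by 0.00 and 1.52 and were not called. Psme4 at 1387345_at scored -0.42, 0.41, 0.43 and 1.07 against -0.82, -0.23, -1.07 and -0.45 in controls, with overlap (1.02, adjusted p = 0.04). Of the 6 activator probe sets 4 had a positive difference and 2 a negative one, and no other was called. The negative ones were among the other probe sets of Psme4 and of Psme1, so the other probe sets of Psme4 did not both rise. The Psma2 call was lost without control animals 26 or 27 or dosed animal 33 (adjusted p = 0.053 to 0.073). The Psmd14 call was lost without control animal 26 or dosed animals 33 or 35 (adjusted p = 0.051 to 0.073) and after quantile normalisation (0.59). The Psme4 call was lost without control animals 25, 27 or 28 or dosed animals 34, 35 or 36 (adjusted p = 0.053 to 0.12).

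The members that fell were ones that stood high in control pancreas. Psma7 scored 0.21, -0.18, -0.66 and 0.04 at 60 mg/kg against 1.43, 1.10, 1.13 and 0.78 in controls, without overlap, and fell by 1.26 (adjusted p = 0.0087). Its 3 mg/kg group, 1.33 ± 0.08, and the AMG A groups, 1.26 to 1.88 in mean, stayed with the controls. Psmb10 scored 0.35, 0.16, 1.08 and 0.93 at 60 mg/kg against 2.71, 1.92, 3.18 and 1.15 in controls. All dosed animals lay below all controls, by little for the lowest control. Psmb10 fell by 1.61 ± 0.40 (adjusted p = 0.016), and the call was lost without control animals 25 (-1.45, adjusted p = 0.051) or 27 (-1.30, adjusted p = 0.057). After quantile normalisation the difference was -0.92 and was not called.

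Psme3ip1, the partner gene, scored 0.66, 1.15, 0.87 and 1.63 against 1.94, 2.53, 2.06 and 1.62 in controls and fell by 0.96 (adjusted p = 0.04). Its call was lost without control animals 25, 26 or 27 or dosed animals 33, 34 or 35 (adjusted p = 0.06 to 0.13) and after quantile normalisation (-0.38). A fit of only the compared groups called 2 members in this pancreas comparison. With each animal left out in turn, the fit of both pancreas studies called 4 to 7.

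Acinar markers moved with these differences. All 8 acinar probe sets fell at 60 mg/kg, by 1.05 to 1.21, and the list mean ran from 1.55 to 1.74 at 60 mg/kg against 2.30 to 3.12 in controls, without overlap. At AMG A 30 mg/kg it ran from 1.88 to 2.25 against 2.02 to 2.62 in controls. Islet markers fell at 2 of 5 probe sets (Ins1 and Ins2) and endothelial markers at 2 of 11 (Kdr and Tek). The part of the changed cell makeup or acinar RNA in the subunit differences was not tested.

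Single genes around the subunits were called in the pancreas, where 9.88% of all probe sets were called. Pomp, the chaperone that completes core assembly, fell by 1.17 (adjusted p = 0.0043), and Psmf1, an inhibitor of the core, rose by 0.95 (adjusted p = 0.041), 1 probe set each way of 12. Of the receptors and deubiquitinases 3 of 18 rose and none fell: Zfand5, an activator of the proteasome, by 3.54, the deubiquitinase Uchl5 by 2.48 and the ligase Ube3c by 0.93. Of p97 and its cofactors 3 of 21 probe sets rose, Ubxn4 at 2 probe sets (1.33 and 1.69) and Nploc4 (0.73), and Sel1l fell by 0.64. Of the NRF2 targets 3 of 14 rose: Ugdh by 0.99, Txnrd1 by 0.74 and Nqo1 by 0.50.

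AMG A at 30 mg/kg gave no member call in the pancreas, beside 0.00322% of all probe sets, and neither did 3 mg/kg, also beside 0.00322%. Psmb10 had the lowest adjusted p at 30 mg/kg. It scored 3.67, 2.74, 3.67 and 3.44 at 30 mg/kg against 1.32, 1.34, 1.46 and 1.73 in controls. These groups did not overlap, and the difference of 1.91 ± 0.40 missed the threshold (adjusted p = 0.18). Psmb5 at 1371348_at stood at 2.47 ± 0.72 against 1.04 ± 0.24 in controls, also without overlap (1.43, adjusted p = 0.37). At 3 mg/kg the lowest adjusted p was that of Psmd7 at 1379322_at (1.18, adjusted p = 1). The Psmb10 difference was positive at AMG A 30 mg/kg and negative at AMG B 60 mg/kg. The doses differ, and the 2 effects were not compared.

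**Figure D4:**
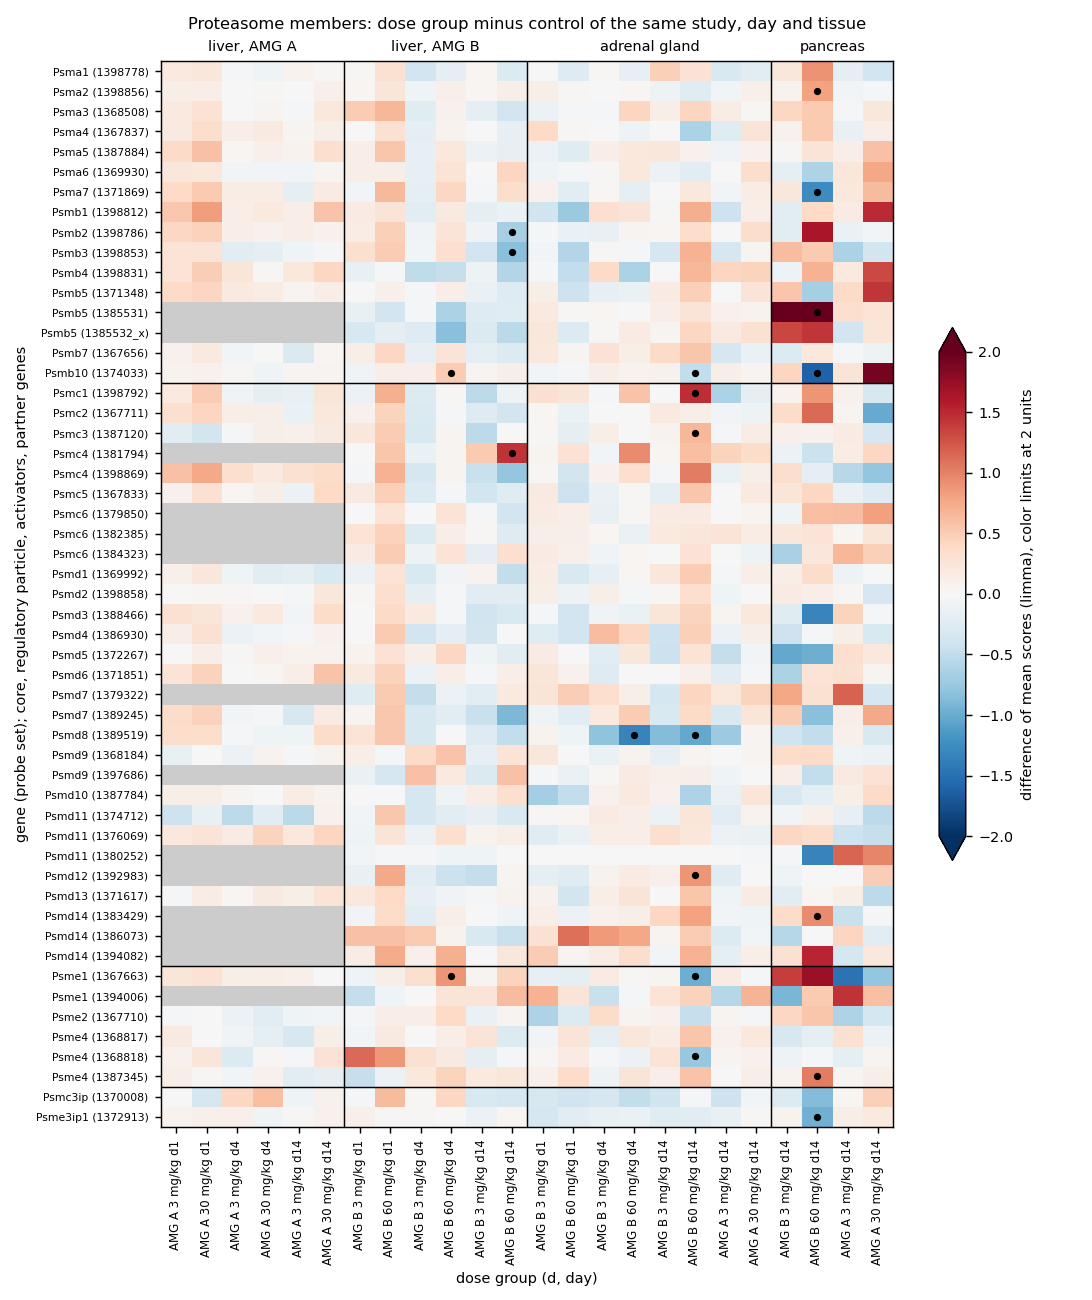
Difference of mean scores between each dose group and the control group of the same study, day and tissue (colour, limits at 2 units either way) for every member probe set (vertical axis) in the 24 dose comparisons (horizontal axis; d, day), with a dot where the adjusted p was under 0.05 and gray where the smaller table lacks the probe set. The dots lie in 5 columns, all AMG B 60 mg/kg, and the columns without dots include liver at AMG B 60 mg/kg on day 1, where 25 of 29 regulatory probe sets were positive.

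The interferon-inducible members can be read across the tissues of the AMG B study. At 60 mg/kg Psmb10 differed by 0.13, 0.50 and 0.12 in liver on days 1, 4 and 14, by -0.04, 0.07 and -0.49 in adrenal gland and by -1.61 in pancreas. Psme1 at 1367663_at differed by 0.12, 0.88 and 0.45 in liver, by -0.20, 0.03 and -0.97 in adrenal gland and by 1.71 in pancreas. In liver on day 14 the Psme1 groups still did not overlap (0.98 ± 0.17 against 0.53 ± 0.21, adjusted p = 0.14). In pancreas the Psme1 values were 1.66, -1.72, -0.03 and -2.03 at 60 mg/kg against -2.16, -2.38, -2.70 and -1.73 in controls, and the spread was wide (adjusted p = 0.29). Lymphocyte markers were spread in the same pancreas arrays, with a list mean from -0.35 to 3.74 at 60 mg/kg against -0.10 to 0.12 in controls, and their part was not tested. Psme2 differed by 0.55 in pancreas (adjusted p = 0.28). Psmb8 and Psmb9 differed by 1.20 and 1.35 there (adjusted p = 0.43 and 0.32), opposite in sign to Psmb10. Tapbp, a chaperone of peptide loading, rose by 1.68 (adjusted p = 0.044), 1 of 12 probe sets of the interferon-inducible list.

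**Figure D5:**
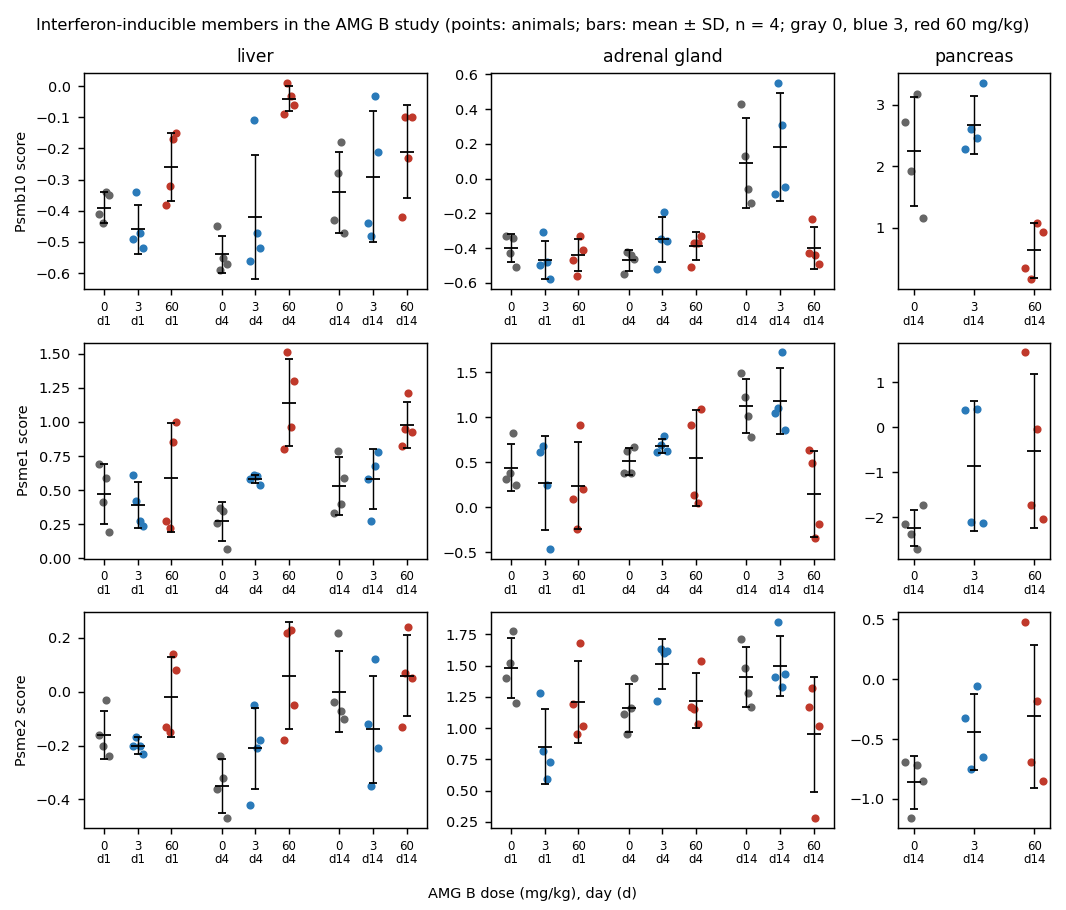
Scores of Psmb10, Psme1 (1367663_at) and Psme2 (vertical axes, standardised score) in liver, adrenal gland and pancreas of the AMG B study by dose and day (d); points are animals, bars the mean ± SD of 4, and colours mark 0 (gray), 3 (blue) and 60 mg/kg (red). In liver on day 4 the 60 mg/kg animals lie above the controls for all 3 genes, and in adrenal gland on day 14 they lie below them for Psmb10 and Psme1 and overlap them for Psme2.

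The constitutive catalytic subunit Psmb7 was called in none of the 24 dose comparisons. Its largest difference was 0.55 (1.63 ± 0.61 against 1.08 ± 0.19) in adrenal gland at AMG B 60 mg/kg on day 14, with an adjusted p of 0.42. Psmb6, which holds another constitutive site, had no probe set with a single symbol and was not analysed here.

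High and low doses were also set against each other on day 14. At AMG B 60 against 3 mg/kg in adrenal gland 5 members were called, beside 4.50% of all probe sets. Psmc1 was 1.46 higher (adjusted p = 0.0031) and Psmb3 was 1.03 higher (adjusted p = 0.043) at 60 mg/kg. Psme4 at 1368818_at was 1.03 lower (adjusted p = 0.0017), Psme1 at 1367663_at 1.02 lower (adjusted p = 0.013) and Psmb10 0.58 lower (adjusted p = 8.1e-04). The Psmb3 call was lost without 3 mg/kg animals 30, 31 or 32 or 60 mg/kg animals 33 or 36 (adjusted p = 0.052 to 0.27). The Psme1 call was lost without 3 mg/kg animal 31 or 60 mg/kg animals 35 or 36 (adjusted p = 0.058 to 0.073). In pancreas 2 members were called beside 3.68% of all probe sets, Psmb10 (-2.04, adjusted p = 0.0086) and Psma7 (-1.48, adjusted p = 0.0068), both lower at 60 mg/kg. No member was called in liver at AMG B, beside 3.79% of all probe sets, in adrenal gland at AMG A, beside 0%, or in pancreas at AMG A, beside 0.00966%. The 60 mg/kg animals are those already compared with controls, so these are not separate evidence.

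The effect on day 14 was set against that on day 1 where both days were sampled. In liver at AMG B 60 mg/kg 1 member differed, Psmb2, whose effect was 1.14 lower on day 14 than on day 1 (adjusted p = 0.046), beside 0.193% of all probe sets. That call was lost in 14 of the 16 fits that left out an animal: control animals 1, 2, 3, 4, 25, 26, 27 or 28, or 60 mg/kg animals 9, 10, 11, 12, 34 or 35 (adjusted p = 0.053 to 0.11). No member differed in adrenal gland at AMG B 60 mg/kg, beside 1.16% of all probe sets, or in liver at AMG A 30 mg/kg, beside 0%. The compounds share the 3 mg/kg dose, and on day 14 no member's effect differed between AMG A and AMG B at that dose, beside 0.00644% of all probe sets in adrenal gland and 0% in pancreas.

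The effect of AMG B 60 mg/kg on day 14 was compared between tissues of the same animals. Between liver and adrenal gland no member differed, beside 1.04% of all probe sets. Between pancreas and adrenal gland 7 differed, beside 9.55%, and between pancreas and liver 9 differed, beside 9.31%. The effect on Psmb5 at 1385531_at was 2.63 higher in pancreas than in adrenal gland (2.88 against 0.25, adjusted p = 0.0049) and 3.12 higher than in liver (adjusted p = 0.0012). Both rest on the widely spread AMG B pancreas controls of this probe set, described above. The effect on Psma7 was 1.47 lower in pancreas than in adrenal gland (-1.26 against 0.21, adjusted p = 0.00087) and 1.61 lower than in liver (adjusted p = 0.00036). That on Psmb10 was 1.73 lower in pancreas than in liver (-1.61 against 0.12, adjusted p = 0.0077), and after quantile normalisation it was -1.07 and not called.

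Other tissue differences concerned members that were not called in the pancreas alone. Psmd3, a lid subunit, differed between pancreas and adrenal gland by -1.75 (-1.32 against 0.44, adjusted p = 0.014). Its pancreas scores were -0.35, 0.46, 0.65 and 1.53 at 60 mg/kg against 1.98, 1.80, 2.13 and 1.66 in controls, without overlap. After quantile normalisation the Psmd3 difference was -1.19 and was not called. Psmb2 differed between pancreas and liver by 2.31 (1.64 against -0.67, adjusted p = 0.0034), with pancreas scores of 0.69, 0.61, -0.07 and 0.68 at 60 mg/kg against -1.28, -0.30, -1.67 and -1.43 in controls. Those groups also did not overlap. Psme1 at 1367663_at differed between pancreas and adrenal gland by 2.68 (1.71 against -0.97, adjusted p = 0.025). That call was lost without adrenal control 25, adrenal animal 35 or pancreas animal 33 (adjusted p = 0.05 to 0.062).

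Within groups the subunits varied together from animal to animal. Over pairs of core probe sets the mean correlation of each array's deviation from its group mean was 0.46 in the AMG A liver, 0.30 in the AMG B liver, 0.18 in adrenal gland and 0.23 in pancreas (36, 36, 48 and 24 arrays). For the regulatory particle it was 0.35, 0.20, 0.28 and 0.16 in the same order, and for pairs of 1 core and 1 regulatory probe set 0.39, 0.24, 0.23 and 0.11. The signed average over all pairs of probe sets was 0.000 to 0.003. Array medians over all probe sets were nearly level within each tissue, which holds that average near 0. It is therefore no yardstick for how other groups of genes vary together. Activator pairs gave 0.38 in the AMG A liver and 0.00 in the AMG B liver. Probe sets of an array share its RNA sample and hybridisation, and these correlations describe the arrays without a test.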

How the data were processed

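RNA of liver, adrenal gland and pancreas was measured on 2 rat expression array platforms, 108 arrays on the larger and 36 on the smaller, which holds the AMG A liver. Per the labels' protocols, total RNA was isolated with RNeasy midi columns and 5 ug was labelled with biotin in 1 cycle. The values as deposited are a score, with each probe set near mean 0 and SD 1 over all arrays of both tables; how the authors made it is not stated in the labels. Signal over background is unknown, so the number of arrays limits the precision.

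From these scores group means were fitted with limma 3.58.1 (R 4.3.3; trend = TRUE) within each tissue and table, and within day 14 for comparisons between tissues. P-values were Benjamini-Hochberg adjusted over all probe sets of a table, with a threshold of 0.05. The members, gene lists and tests were chosen with earlier results of these data known. In each dose comparison the text names up to 5 called members each way (3 in other comparisons). Where none was called it names the one with the lowest adjusted p. Psmb5, Psmb7, Psmb10, Psmd14, Psme1 and Psme2 were read in all. Other members were named outside this rule, among them Psma5 at AMG A 30 mg/kg and Psmc2 and Psmc4 at AMG B 60 mg/kg in liver on day 1. How often groups did not overlap was not counted over all probe sets. Symbols came from the platform annotation: 1 symbol for 20826 and 12783 probe sets of the larger and smaller table, several for 436 and 312, and none for 9780 and 2771. No hybridisation batch is named in the labels. Animal numbers tie the tissues of 1 animal: the median correlation of deviations from the group mean was 0.049 (liver and adrenal gland), 0.023 (pancreas and adrenal gland) and 0.015 (pancreas and liver) in the AMG B study. Consensus correlations were 0.0236 and 0.0202 (AMG B and AMG A). Alternatives were quantile normalisation, median centring, no trend, array weights, only the compared groups, 1 probe set for each gene, the animal as a block, and each animal left out in turn. The procedure was tested on simulated data.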

Additional observations from a re-analysis of the deposited data

Results flagged for a closer look

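Of 76 groups of 4 animals examined at the members named in the text, 1 held an animal far from the others. In liver at AMG B 60 mg/kg on day 14, Psmb2 scored -0.62 in animal 35 and 0.11 to 0.12 in the other animals of the group. Chance alone sets apart about 1 in 20 such groups.

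The effect of AMG B 60 mg/kg differed between days or tissues in tests of the difference itself for the members below (limma, Benjamini-Hochberg over all probe sets). Between day 14 and day 1 in liver, the effect on Psmb2 differed by -1.14 (adjusted p = 0.046). Between pancreas and adrenal gland on day 14, the effects on Psme1 at 1367663_at (2.68), Psmb5 at 1385531_at (2.63), Psma4 (1.15) and Psma2 (1.03) were higher in pancreas. The effects on Psmd3 (-1.75), Psma7 (-1.47) and Psmd11 at 1380252_at (-1.34) were lower in pancreas. Between pancreas and liver, those on Psmb5 at 1385531_at (3.12), Psmb2 (2.31), Psmc2 (1.48), Psma1 (1.17) and Psmc6 at 1379850_at (0.98) were higher in pancreas. Those on Psmb10 (-1.73), Psma7 (-1.61), Psmd11 at 1380252_at (-1.32) and Psma6 (-1.04) were lower in pancreas. Acinar markers fell in the pancreas of the same animals at 8 of 8 probe sets, and their part in these differences was not tested. The Psmb5 differences rest on the widely spread AMG B pancreas controls of that probe set, described above.

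The Psma4 call was lost in 11 of the fits that left out an animal: adrenal controls 25 or 28, adrenal 60 mg/kg animals 33, 34 or 35, pancreas controls 25, 26, 27 or 28, and pancreas 60 mg/kg animals 33 or 36 (adjusted p = 0.052 to 0.11). The Psmc2 call was lost in 9: liver controls 26 or 27, liver 60 mg/kg animals 33, 34 or 35, pancreas controls 25 or 28, and pancreas 60 mg/kg animals 34 or 36 (adjusted p = 0.052 to 0.073). Quantile normalisation ended both calls of Psmd11 (-0.78 against adrenal gland and -0.75 against liver), and array weights ended that of Psma4 (1.04).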

How the results depend on the processing

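Of the counts of members called, 236 kept within 1.5 times and 33 moved under a change of setting, and 348 kept and 52 moved with 1 animal left out. Of the named members 544 kept their direction and call under a change of setting, 53 lost the call and 6 gained it. With 1 animal left out, 718 kept it, 111 lost it, 2 gained it and 1 turned sign, Psme2 in liver at AMG B 60 mg/kg on day 14 (0.05, between -0.01 without animal 35 and 0.13). Causes were not tested, except that the fit of only the compared groups rests on fewer arrays.

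That fit called 0 members in liver at AMG B 60 mg/kg on days 4 and 14, 0 in adrenal gland at 60 mg/kg on days 4 and 14, 2 in pancreas at 60 mg/kg, 0 between the doses in the AMG A liver, adrenal gland or pancreas, and 0 between days in liver. For differences of effect it called 1 between liver and adrenal gland, 3 between pancreas and adrenal gland and 5 between pancreas and liver. Quantile normalisation called 1 in the AMG A liver at 30 mg/kg on day 14, 1 in liver at AMG B 60 mg/kg on day 14, 1 in pancreas at AMG B 3 mg/kg (Psmb5, 2.41), 0 between days in liver, 1 between liver and adrenal gland and 5 between pancreas and liver. Array weights called 1, 1, 1 (Psmb5, 2.85), 0 and 4 in the same comparisons up to liver against adrenal gland, and 1 between days in adrenal gland. Median centring called 1 in the AMG A liver at 30 mg/kg on day 14 and 1 between doses in the AMG B liver, where omitting the trend also called 1. With 1 probe set for each gene the calls were 1 and 1 in those comparisons, 5 between doses in pancreas and 1 between liver and adrenal gland. Leaving out the widest pancreas array, an alternative chosen after seeing the data, gave 11 between pancreas and adrenal gland and 1 between liver and adrenal gland.

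With 1 animal left out the count ran from 0 to 1 in the AMG A liver at 30 mg/kg on day 14 and between its doses. At AMG B 60 mg/kg it ran from 1 to 2 in liver on day 4, 0 to 4 in liver on day 14, 0 to 1 in adrenal gland on day 4, 3 to 9 in adrenal gland on day 14 and 4 to 7 in pancreas. It ran from 0 to 1 in pancreas at AMG B 3 mg/kg, 0 to 1 between doses in liver, 3 to 10 in adrenal gland and 2 to 6 in pancreas, 0 to 3 between days in liver and 0 to 5 in adrenal gland, and 0 to 1 between liver and adrenal gland. With the animal as a replicate block, which applies only to comparisons between tissues, the count between pancreas and liver was 10 in place of 9, and no named call changed. Dim probe sets could not be left out, since scores carry no background.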
